A study of Mus musculus with 24 samples.

Results

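The question addressed was whether hypoxic-ischemic brain injury (HIBI) changed miRNA levels differently in the forebrain and in the cerebellum of the same neonatal mice. The measure was a difference of differences. For each pup, the mean of log2(CPM + 1) in cortex and striatum/thalamus minus log2(CPM + 1) in cerebellum was taken. This regional difference was compared between 4 pups with HIBI and 4 sham pups. CPM is counts per 1e6 of the library total, adjusted by the TMM scaling factors of edgeR (0.84 to 1.24). Means over the 24 libraries, the 10 CPM minimum, and the miR-210 levels used the unadjusted library total. Of 1551 entries in the tables, 1531 were mouse miRNAs, and the 435 with a mean above 10 CPM over the 24 libraries were tested; they held 99.9% of the counts.

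All pups were CD1 mice of both sexes at postnatal day 9. The HIBI pups (pups 1, 4, 5, and 7) had the right carotid artery cauterized and, after 2 h of recovery, breathed 8% oxygen for 30 min. The sham pups (pups 2, 3, 6, and 8) shared the isoflurane, the bupivacaine, the neck dissection, and the separation from the dam, but had neither ligation nor low oxygen. Cortex, striatum/thalamus, and cerebellum of the right side were taken 30 min after injury, and small RNA libraries were made from 200 ng of RNA each. In this model the cerebellum is exposed to low oxygen but lies outside the territory of the ligated artery. There was no group with low oxygen alone, so that an effect of ischemia and a regional difference in the response to hypoxia cannot be told apart.

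MiRNAs are short RNAs that guide Argonaute proteins to messenger RNAs and repress them. Most pairing runs through the seed near the 5′ end, and each hairpin precursor can give a 5p and a 3p arm. Brain regions differ in their miRNAs: the imprinted Dlk1-Dio3 domain encodes a large group of neuronal miRNAs expressed from the maternal chromosome, miR-204 is abundant in choroid plexus, and miR-486 and miR-451a are abundant in red blood cells. In whole tissue, fewer cells of a type and less of a miRNA per cell cannot be told apart.

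The sequences below are those of miRNAs described in the results, as RefSeq gives them for GRCm38, 5′ to 3′, with the seed (bases 2 to 8) in capitals. The first set was higher in the forebrain relative to the cerebellum after HIBI.
let-7d-3p: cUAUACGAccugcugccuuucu
miR-423-5p: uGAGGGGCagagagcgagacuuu
miR-125a-5p: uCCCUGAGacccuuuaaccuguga
miR-204-5p: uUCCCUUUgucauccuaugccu
miR-34b-3p: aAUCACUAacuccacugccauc
miR-1298-5p: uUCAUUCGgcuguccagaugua
miR-5126: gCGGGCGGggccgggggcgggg
Let-7d-3p lies at chr13:48536024-48536045 in an exon of 6720427I07Rik, miR-423-5p at chr11:77078122-77078144 in an intron of Nsrp1, and miR-125a-5p at chr17:17830817-17830840 in an exon of Spaca6. MiR-204-5p lies at chr19:22750610-22750631 in an intron of Trpm3, and miR-1298-5p at chrX:147064918-147064939 in an intron of Htr2c. MiR-5126, at chr1:84695890-84695911, was made of G and C alone.

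The second set was lower in the forebrain relative to the cerebellum after HIBI. Its miR-379-5p, miR-376b-3p, and miR-410-5p belong to the Dlk1-Dio3 domain, and miR-146a-5p and miR-146b-5p share their seed.
miR-1251-5p: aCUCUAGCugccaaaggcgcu
miR-379-5p: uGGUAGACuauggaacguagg
miR-376b-3p: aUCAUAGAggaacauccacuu
miR-410-5p: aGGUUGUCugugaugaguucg
miR-31-5p: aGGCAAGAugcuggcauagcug
miR-146a-5p: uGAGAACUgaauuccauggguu
miR-146b-5p: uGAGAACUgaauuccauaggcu
MiR-1251-5p lies at chr10:92137190-92137210 in an intron of Rmst, miR-379-5p at chr12:109709065-109709085, miR-376b-3p at chr12:109723508-109723528, miR-410-5p at chr12:109743729-109743749 in an exon of Mirg, and miR-31-5p at chr4:88910614-88910635 in an exon of AL805899.1.

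The libraries held 1254185 to 3406624 counts on miRNAs, with a median of 2161382, so that 10 CPM stands for few counts. The 36 pairs of libraries within a group differed by more than sampling noise, with a smallest chi-square of 37.3 per degree of freedom. Counting error is therefore smaller than the spread between pups for abundant miRNAs. Summed over the tested miRNAs of the Hox clusters, which mark posterior tissue, levels were 474 to 1835 CPM in the cerebellar libraries and 37.3 to 112 CPM in the cortical ones, so that these libraries differed in the direction of their labels. Sham pup 2 had the highest summed level of 6 choroid plexus and ciliated epithelium miRNAs in cerebellum, at 10315 CPM, against 2605 to 4697 CPM in the other 3 sham pups. Counts and values that moved most with this pup are also given without it.

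After HIBI, 82 of the 435 miRNAs (18.9%) differed in their forebrain minus cerebellum difference by a fold above 1.5 with an unadjusted p under 0.05 in edgeR's quasi-likelihood test, the criteria used by the study. Of these, 38 (8.74%) were higher in forebrain relative to cerebellum, led by miR-320-3p, let-7d-3p, and miR-423-5p, and 44 (10.1%) were lower, led by miR-1251-5p, miR-379-5p, and miR-31-5p. None had a Benjamini-Hochberg adjusted p under 0.05 in that test. The smallest adjusted p was 0.0507, shared by miR-320-3p and let-7d-3p, 67 miRNAs were under 0.2, and 90 had an unadjusted p under 0.05. DESeq2 gave 8 miRNAs with an adjusted p under 0.05, edgeR's likelihood ratio test gave 13, and limma on the per pup differences gave 0. Every called miRNA is therefore a candidate at an unadjusted threshold. Without sham pup 2 the count fell to 32 (18 higher and 14 lower), of which 29 were among the 82. The split between higher and lower depended on the scaling of the libraries, with 26 higher and 51 lower under median-of-ratios scaling, 20 and 70 with library size alone, and 42 and 37 with upper quartile scaling. DESeq2 gave 29 higher and 56 lower. The median of all 435 differences was -0.03 with the TMM scaling used here and -0.23 with library size alone.

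The miRNAs called higher were led by miR-320-3p, which had per pup regional differences of -1.67, -1.10, -0.97, and -1.07 in the sham pups and -0.38, -0.38, -0.09, and -0.38 in the HIBI pups. Its groups did not overlap, and the difference in injury effect was 0.91 on the log2 scale (SE 0.195, edgeR adjusted p = 0.0507). Its cerebellar level was 4686, 3427, 2547, and 3624 CPM in sham and 2368, 2913, 1686, and 2422 CPM in HIBI, so that the cerebellar groups overlapped. In cortex every HIBI pup, at 1377 to 1627 CPM, was above every sham pup, at 1155 to 1366 CPM.

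Let-7d-3p, the minor arm of a let-7 precursor, had regional differences of -1.66, -1.15, -0.67, and -0.73 in sham and -0.06, -0.03, -0.10, and -0.06 in HIBI. The HIBI pups sat close to 0, and all sham pups were below them. The difference was 1.02 (SE 0.229, edgeR adjusted p = 0.0507). In cerebellum it was at 8033, 6412, 4122, and 4098 CPM in sham and 3115, 4189, 2570, and 2944 CPM in HIBI, and 1 HIBI pup lay within the sham range.

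MiR-423-5p had regional differences of -2.05, -1.34, -1.0, and -1.09 in sham and 0.11, -0.17, -0.46, and -0.35 in HIBI. The groups did not overlap, and the difference was 1.19 (SE 0.299, edgeR adjusted p = 0.0953). Cerebellar levels were 1304 to 2423 CPM in sham and 622 to 1146 CPM in HIBI, without overlap, while cortical levels overlapped. MiR-125a-5p, homolog of the lin-4 miRNA and one of the 5 most abundant miRNAs in the libraries, had regional differences of -0.87, -0.41, 0.13, and -0.05 in sham and 0.49, 0.81, 0.40, and 0.57 in HIBI, a difference of 0.90 (SE 0.255, edgeR adjusted p = 0.109). Its cerebellar levels were 48009 to 94062 CPM in sham and 32839 to 46354 CPM in HIBI, without overlap.

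The rest of the 10 called higher with the smallest p were miR-486b-5p (1.03), miR-486a-5p (0.99), miR-3968 (1.05), miR-351-3p (1.52), miR-204-3p (1.82), and let-7b-3p (0.82), as log2 differences in injury effect. Their adjusted p-values in edgeR lay between 0.10 and 0.137. The groups overlapped in 2 of them: in miR-3968, where HIBI pup 1 lay within the sham range, and in miR-204-3p.

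Among the miRNAs called lower, miR-1251-5p had the largest difference in size, at -2.09 (SE 0.538, edgeR adjusted p = 0.0953). Its regional differences were 1.80, 0.41, -0.22, and -0.32 in sham and -1.16, -2.31, -2.01, and -0.81 in HIBI, without overlap. In cerebellum it was at 7.38, 19.3, 30.1, and 16.9 CPM in sham and 48.9, 39.2, 36.8, and 35.7 CPM in HIBI, so that all HIBI pups were higher, and in cortex at 3.77 to 14.0 CPM in sham and 1.34 to 6.65 CPM in HIBI. These are low levels with a large counting error.

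MiR-379-5p, of the Dlk1-Dio3 domain, had regional differences of 1.78, 1.43, 0.68, and 0.75 in sham and 0.47, 0.01, -0.33, and 0.45 in HIBI. The groups did not overlap, and the difference was -1.01 (SE 0.268, edgeR adjusted p = 0.0988). Its cerebellar levels were 1012, 1142, 2405, and 2265 CPM in sham and 2161, 2093, 4002, and 2171 CPM in HIBI; sham pups 2 and 3 were low, and the other sham pups were within the HIBI range. MiR-31-5p had regional differences of 1.35, 2.24, 1.87, and 1.36 in sham and 0.62, 0.96, 0.26, and 0.51 in HIBI, a difference of -1.09 (SE 0.299, edgeR adjusted p = 0.10).

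The remaining miRNAs of the 10 called lower with the smallest p were miR-376b-3p (-1.13), miR-300-3p (-0.70), miR-410-5p (-1.71), miR-380-3p (-0.88), miR-380-5p (-1.20), miR-1983 (-0.70), and miR-411-5p (-0.69), as log2 differences in injury effect. All but miR-1983 belong to the Dlk1-Dio3 domain. The groups of pups did not overlap for miR-300-3p, miR-410-5p, and miR-1983. Without sham pup 2, miR-300-3p (-0.52), miR-1983 (-0.53), and miR-411-5p (-0.48) were not called.

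**Figure D1:**
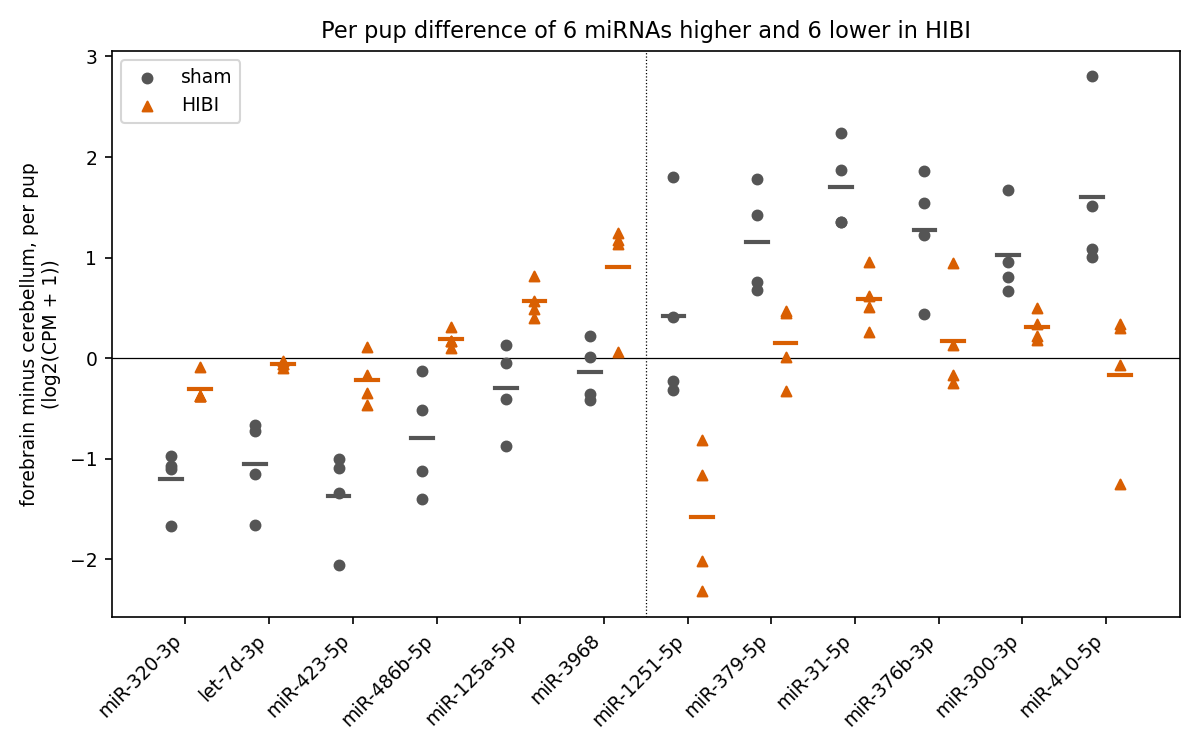
Per pup forebrain minus cerebellum difference, in log2(CPM + 1), for the 6 miRNAs called higher and the 6 called lower with the smallest p; each point is 1 pup and each bar a group mean of 4 pups. The HIBI points of miR-320-3p (-0.38 to -0.09) lie above the sham points (-1.67 to -0.97), and those of miR-1251-5p (-2.31 to -0.81) below them.

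Over all 435 miRNAs, the per pup differences of HIBI and sham did not overlap in 46 (10.6%), of which 30 were higher and 16 lower in HIBI. For each of these the exact two-sided permutation test gave p = 0.0286, the smallest that 70 arrangements of 4 against 4 pups allow. Of the 82 called miRNAs, 32 had groups without overlap.

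In most called miRNAs the cerebellar part of the difference was larger than the forebrain part. In all 38 miRNAs called higher, the cerebellar mean was below sham in HIBI, with a median of -0.58 on the log2(CPM + 1) scale, against a forebrain median of 0.27. In all 44 called lower, the cerebellar mean was above sham in HIBI, with a median of 0.66, against a forebrain median of -0.15. The cerebellar part was the larger one in 31 of the 38 and 43 of the 44, and in 306 of all 435. In 31 of the 38 and 29 of the 44 the change in cerebellum was opposite in sign to that in both forebrain regions. Over all 435 miRNAs, 75 had the pattern of the 38, below 0 in cerebellum and above 0 in both forebrain regions. The pattern of the 44 was not counted over all miRNAs. The counts for called miRNAs are descriptions, since the call itself fixes their direction and favors opposite signs. The forebrain part averages cortex and striatum/thalamus, while the cerebellar part comes from cerebellum alone. Averaging narrows the spread of the forebrain part, so that a larger cerebellar part need not mean a larger change there. Among the 353 miRNAs not called, the cerebellar part was the larger one in 232.

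Among the called miRNAs the median regional difference was smaller in size in HIBI than in sham. Of the 44 called lower, 43 were above the cerebellum in sham forebrain, and their median regional difference was 1.18 in sham and 0.31 in HIBI. Of the 38 called higher, 5 were above the cerebellum in sham forebrain, with medians of -0.80 in sham and 0.20 in HIBI. Of all 435 miRNAs, 205 were above the cerebellum in sham forebrain. The sham values enter both quantities, so that part of this relation is built into the comparison.

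**Figure D2:**
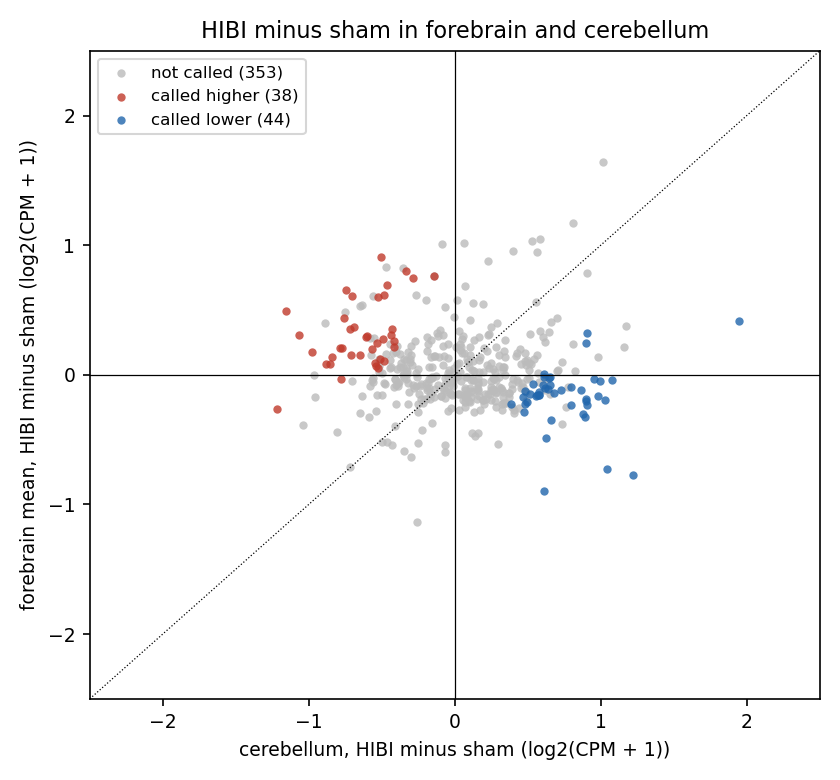
HIBI minus sham in the cerebellum (x axis) against the mean of cortex and striatum/thalamus (y axis), both as differences of mean log2(CPM + 1), with 1 point per miRNA; the dotted line marks equal change. All 38 miRNAs called higher lie left of 0 and all 44 called lower lie right of it.

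Tested 1 region at a time, HIBI against sham gave 33 called miRNAs in cerebellum (7.59%), 13 in striatum/thalamus (2.99%), and 18 in cortex (4.14%). The smallest adjusted p in edgeR was 0.411 in cerebellum, 0.958 in striatum/thalamus, and 0.0279 in cortex, the last for miR-3963, which was 2.54 higher on the log2 scale in HIBI cortex (SE 0.422). Of the miRNAs called for the regional difference, 16 of the 38 higher and 33 of the 44 lower were called in no single region. Over all 435 tested miRNAs this held for 377. The 3 regional tests come from separate fits, and their counts were not compared by a test.

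Both forebrain regions were then set against the cerebellum in turn. The cortex minus cerebellum difference gave 60 called miRNAs (13.8%) and the striatum/thalamus minus cerebellum difference 72 (16.6%). The cerebellar libraries are shared by both. Of the 82 called for the forebrain mean, 81 had the same sign in both regions, 54 were also called against cortex, and 60 against striatum/thalamus. The forebrain difference is the average of these same regional differences. Agreement in sign and shared calls are therefore largely built in. Without sham pup 2 the counts were 16 for cortex and 42 for striatum/thalamus; without HIBI pup 5 the cortex count was 28, and without sham pup 3 the striatum/thalamus count was 40.

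The difference in injury effect between cortex and striatum/thalamus was called for 8 miRNAs (1.84%), 2 higher and 6 lower in cortex, and none had an edgeR adjusted p under 0.05; as many, 8, had an unadjusted p under 0.05. MiR-128-1-5p had the smallest p, with a difference of -1.98 (SE 0.509, edgeR adjusted p = 0.387). It and miR-214-3p (-1.26) were the only members of the 82 among them, so that their forebrain means cover unequal regional changes.

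The Dlk1-Dio3 domain on chromosome 12 held 50% of the miRNAs called lower and 15.6% of those tested. Of 105 entries in its list 68 passed the CPM minimum, and of these 22 (32.4%) were called lower and 0 higher, against 22 of the 367 others (5.99%). Differences were below 0 in 62 of the 68, with a median of -0.50, against 0.06 outside the domain and -0.03 over all miRNAs. The 65 members with a position lie between bases 109563710 and 109747949 of chromosome 12 (GRCm38). Median changes of the members from sham to HIBI were 0.48 in cerebellum, -0.08 in cortex, and -0.13 in striatum/thalamus.

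Pup by pup, the median of the Dlk1-Dio3 members, as the regional difference minus its sham mean, was 0.38, 0.10, -0.40, and -0.21 in sham pups 2, 3, 6, and 8. It was -0.47, -0.56, -0.67, and -0.19 in HIBI pups 1, 4, 5, and 7. Sham pups 6 and 8 therefore lay within the HIBI range. Without sham pup 2, 8 members were called, with 14 called lower over all miRNAs. With library size alone 34 were called. Over all miRNAs 70 were then called lower, and the median of all differences was -0.23.

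Members called lower ranged from miR-410-5p at -1.71 to miR-370-3p at -0.59. The abundant members among them were miR-487b-3p (16547 CPM on average, -0.71), miR-382-5p (7044 CPM, -0.65), miR-410-3p (4377 CPM, -0.65), and miR-370-3p (3156 CPM, -0.59). Reads of near-identical members, such as those of the miR-376 group, could be shared in counting, so that single members of that group are uncertain.

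The Dlk1-Dio3 members had a lower median than the other miRNAs in each of the broad classes of GC content below. Under 40% GC, 10 members had a median of -0.77 against -0.37 for 40 other miRNAs. From 40% to under 50%, 21 members had a median of -0.60 against -0.21 for 107 others, and from 50%, 34 members had -0.32 against 0.31 for 159 others. These are medians of the fitted differences, with no test between the groups. Members and others can still differ in GC content within a class, and the part of GC content was not tested.

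Of 10 choroid plexus and ciliated epithelium miRNAs 6 were tested, and 3 were called higher, against 8.74% of all tested miRNAs. All 6 were above 0, with a median of 0.79. Called were miR-204-3p (1.82), miR-34b-3p (1.42), and miR-204-5p (0.94), while miR-34c-5p (0.65) and miR-449a-5p (0.50) did not pass. MiR-204-5p, which is highly expressed in choroid plexus, was at 9346, 4237, 2335, and 4228 CPM in sham cerebellum and 2964, 2550, 2561, and 3747 CPM in HIBI cerebellum. Sham pup 2 was highest by a wide margin, and sham pup 6 was below all HIBI pups. Without sham pup 2, 1 of the 6 was called, miR-204-3p at 1.63, with miR-34b-3p at 0.89 and miR-204-5p at 0.45.

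The cluster in the introns of Htr2c, a serotonin receptor gene with high expression in choroid plexus, had 6 tested members. Their median was 1.10, with 4 above 0 and 2 below 0, and 1 was called higher, against 8.74% of all tested miRNAs. Those below 0 were miR-1298-3p (-0.38), the other arm of the called hairpin, and miR-448-5p (-0.23). MiR-1298-5p was called at 1.66 (SE 0.785, edgeR adjusted p = 0.231), with regional differences of -3.53, -2.36, 0.60, and -2.63 in sham and -1.82, -0.54, 0.53, and -1.55 in HIBI. The groups overlapped, and sham pup 6 was the highest of all 8 pups. Without sham pup 2 miR-1298-5p was at 1.04 (SE 0.817), and none of the 6 was called. The summed level of these 6 in cerebellum was 2589, 1166, 324, and 1313 CPM in sham and 911, 655, 828, and 1246 CPM in HIBI. The part of choroid plexus tissue in these results was not tested.

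Of 4 red blood cell miRNAs, miR-486a-5p and miR-486b-5p were called higher, against 8.74% of all tested miRNAs. The list median was 0.90. MiR-486a-5p was at 1132, 977, 515, and 803 CPM in sham cerebellum and 529, 591, 332, and 410 CPM in HIBI cerebellum. MiR-486a-5p and miR-486b-5p, at 572 and 575 CPM on average, cannot be separated with certainty in the counts. Their calls may therefore be the same result under both names. MiR-451a, the defining red blood cell miRNA, was at -0.25 (SE 0.502) and did not pass. The summed level of the 4 in cerebellum was 1259 to 2416 CPM in sham and 925 to 1356 CPM in HIBI, and the part of blood in this was not tested.

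**Figure D3:**
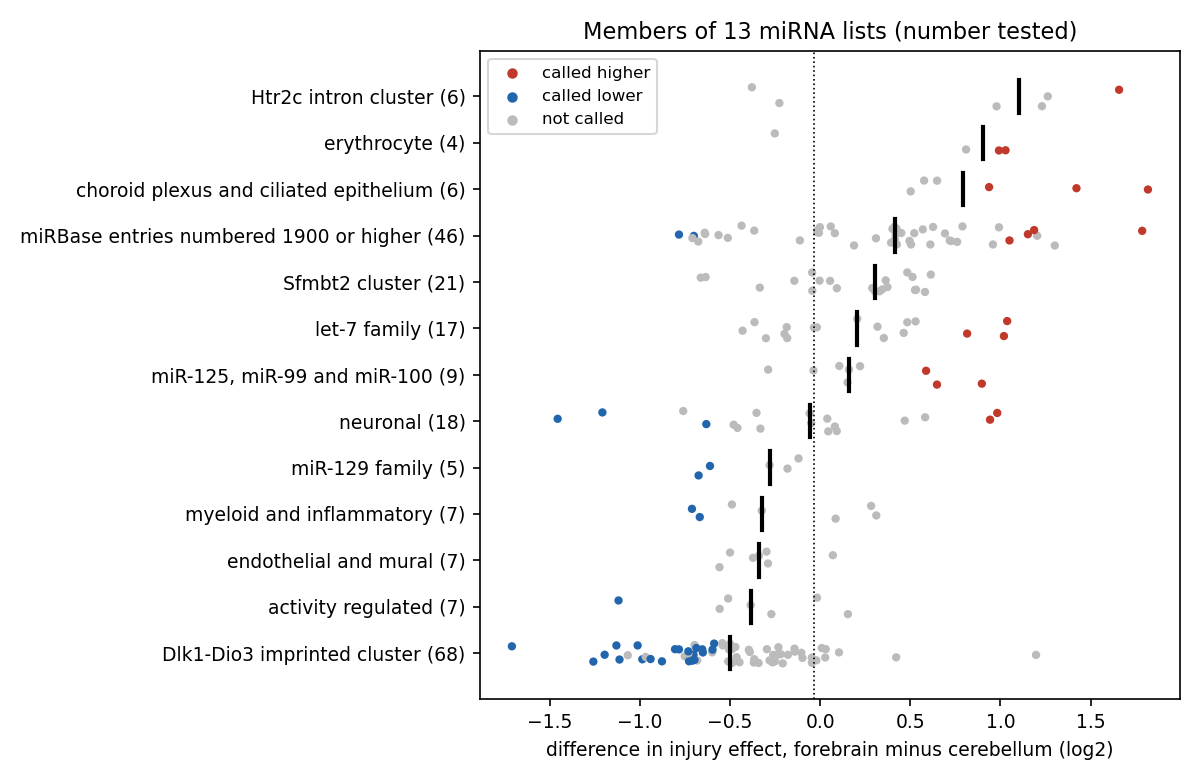
Difference in injury effect, forebrain minus cerebellum (log2, x axis), of the tested members of 13 lists of miRNAs, with the number tested in parentheses; black bars are list medians and the dotted line is the median of all 435 miRNAs (-0.03). Members of the Dlk1-Dio3 domain (median -0.50) lie mostly left of that line, and those of the choroid plexus list (median 0.79) right of it.

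In the let-7 family, whose members rise as neurons mature, 3 of 17 were called higher and none lower. Over all tested miRNAs the shares were 8.74% and 10.1%. The family median was 0.21, with 9 above 0 and 8 below 0, among the latter let-7f-5p (-0.19) and let-7g-5p (-0.30). Called were let-7d-3p, let-7b-5p (1.04), and let-7b-3p (0.82), while the abundant let-7c-5p (0.53, SE 0.318) did not pass. Without sham pup 2, let-7b-5p was at 0.61 and let-7b-3p at 0.56, and let-7d-3p alone was called. In the related group of miR-125, miR-99, and miR-100, 3 of 9 were called higher, against 8.74% of all tested miRNAs. Those called were miR-125a-5p, miR-99b-5p (0.65), and miR-125a-3p (0.59), which come from 1 cluster at Spaca6. Without sham pup 2, miR-99b-5p was at 0.49 and miR-125a-3p at 0.44, and neither was called. The more abundant miR-125b-5p was at 0.22 (SE 0.226).

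Of 18 neuronal miRNAs, 2 were called higher (miR-128-1-5p at 0.98 and miR-128-2-5p at 0.94), 3 were called lower (miR-7a-5p at -1.21, miR-137-3p at -1.46, and miR-138-5p at -0.63), and the median was -0.05. Among all tested miRNAs 8.74% were called higher and 10.1% lower. With sham pup 2 left out, miR-128-1-5p alone was called. The called miR-128 arms are the minor 5p arms. Their abundant partner miR-128-3p was at 0.05 (SE 0.276), and its sign turned negative under median-of-ratios and library size scaling.

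In the miR-129 family 5 of 5 were below 0 and 2 were called lower, against 10.1% of all tested miRNAs. MiR-129b-5p (-0.61) was at -0.49 and not called without sham pup 2. The 2 called members were miR-129-2-3p (-0.67) and miR-129b-5p. These overlap on opposite strands at 1 locus of chromosome 2. Of 7 myeloid and inflammatory miRNAs, miR-146a-5p (-0.71) and miR-146b-5p (-0.67) were called lower, with the same seed and near-identical sequences, against 10.1% of all miRNAs. MiR-146b-5p was at -0.57 and not called without sham pup 2. Of the others, 3 were above 0: miR-150-5p (0.28), the most abundant of the 7, miR-155-5p (0.31), and miR-150-3p (0.09). Other lists with 1 member called lower were the 7 activity regulated miRNAs (miR-384-3p, -1.12) and the 2 of the miR-29 family (miR-29a-3p, -0.62). The 2 muscle miRNAs also had 1 called lower (miR-1a-3p, -1.22). Over all tested miRNAs this share was 10.1%. Without sham pup 2, miR-384-3p was at -0.90, miR-29a-3p at -0.41, and miR-1a-3p at -1.04, and none of them was called. The other muscle miRNA, the more abundant miR-206-3p, was at 0.34 (SE 0.396). The summed level of the 2 muscle miRNAs was 330 to 646 CPM in the cerebellar libraries and 27.1 to 62.4 CPM in the cortical ones, and the part of muscle tissue in this result was not tested. MiR-195a-3p (0.99) was the only member called of 9 in the miR-15 family, against 8.74% of all tested miRNAs called higher. None was called of 7 endothelial and mural, 5 oligodendrocyte, 2 Hox cluster, 11 proliferation cluster, 5 miR-200 and miR-183, 10 miR-30, 3 miR-26, 7 miR-181, 10 miR-23, miR-27, and miR-24, and 21 Sfmbt2 cluster miRNAs. The share called in either direction over all tested miRNAs was 18.9%. Most of these lists are small, so that a count of 0 does not show that their members were unchanged.

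Late miRBase entries, numbered 1900 or higher, had 46 tested members, of which 4 were called higher and 2 lower, with a median of 0.42. The first count is near the 8.74% of all miRNAs called higher, and the second is under the 10.1% called lower. A pair of those called higher is shown for a stretch in common.
miR-3968: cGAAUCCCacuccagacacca
miR-5100: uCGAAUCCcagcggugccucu
They share the 9 bases CGAAUCCCA, which no other of the 371 tested miRNAs with a sequence holds, and their differences were 1.05 and 1.79. MiR-3968 was also called higher in cortex alone, by 0.84 on the log2 scale (edgeR adjusted p = 0.132).

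MiR-210-3p, the classical miRNA induced by low oxygen, was under the 10 CPM minimum. It had 1 to 34 counts per library and a mean of 4.60 CPM, and miR-210-5p a mean of 1.54 CPM. With every miRNA above 1 CPM tested, the difference was 0.02 (SE 0.647) for miR-210-3p and 0.10 (SE 1.27) for miR-210-5p in edgeR, and with no filter -0.04 (SE 1.11) and 0.28 (SE 1.49). Errors of this size leave a wide range of changes possible.

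The miRNAs that the study names for their pattern across regions are described here for that reason, so that this pattern is no independent evidence. Of these, miR-410-5p (-1.71), miR-1298-5p (1.66), miR-34b-3p (1.42), and miR-5126 (1.19) were called, and miR-1264-3p (1.26, SE 0.638) did not pass. MiR-410-5p was at 15.6, 9.66, 33.9, and 27.4 CPM in sham cerebellum and 29.6, 39.7, 55.8, and 43.8 CPM in HIBI cerebellum. MiR-5126 was at 722, 743, 325, and 428 CPM in sham cerebellum and 333, 470, 266, and 218 CPM in HIBI cerebellum. Neither pair of groups was separated.

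MiR-6240 (0.73, SE 0.688), miR-3963 (0.63, SE 0.532), miR-3473a (0.72, SE 0.655), and miR-3473b (0.57, SE 0.557) were not called. A miss does not show that forebrain and cerebellum changed alike. MiR-3963 was at 2.42, 2.51, 4.50, and 4.79 CPM in sham cortex and 10.9, 20.5, 21.6, and 29.5 CPM in HIBI cortex, listed from low to high, without overlap.

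Of the 5 most abundant miRNAs, miR-125a-5p alone was called. MiR-9-5p was at -0.33 (SE 0.296), and let-7c-5p, miR-125b-5p, and miR-128-3p are given above.

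In no hairpin were both arms called in opposite directions. Of 109 hairpins with both arms tested, both arms were called higher in 5 (let-7b, miR-125a, miR-204, miR-423, and miR-92b) and lower in 3 (miR-379, miR-380, and miR-410). In 30, 1 arm was called, and the other had the same sign in 26. Over all 109, 78 had arms of the same sign.

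The differences moved with the base composition of the miRNAs. The median GC content was 59.1% in those called higher, 40.9% in those called lower, and 50% over all with a sequence. Of the 33 called higher with a sequence, 29 had a GC content of 50% or more, and of the 41 called lower, 31 were under 50%. Across the 371 miRNAs with a sequence, which share libraries and are not independent, Spearman's rho between GC content and the difference was 0.43. Within single regions rho between GC content and HIBI minus sham was -0.22 in cerebellum, 0.36 in cortex, and 0.42 in striatum/thalamus.

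The slope of the regional difference on GC content, in log2 per 10% GC, was 0.08, -0.02, 0.07, and 0.37 in sham pups 2, 3, 6, and 8 and 0.16, 0.42, 0.33, and 0.49 in HIBI pups 1, 4, 5, and 7. Sham pup 8 lay within the HIBI range. With GC content fitted in each library, 47 of the 371 were called (24 higher and 23 lower), against 74 without that correction, and 31 of the 47 were among the 82. Among them were 14 Dlk1-Dio3 members. MiR-5126 was at 0.40 under the correction. MiR-320-3p, miR-486a-5p, and miR-486b-5p had no GC value here and were outside the correction. Dlk1-Dio3 members differed in how they held over all alternative settings. The value nearest 0 was -0.03 for miR-369-3p and -0.12 for miR-410-3p, whose weakest setting was GC correction without sham pup 2. It was -0.69 for miR-379-5p and -1.30 for miR-410-5p. The part of base composition beyond these values was not tested.

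**Figure D4:**
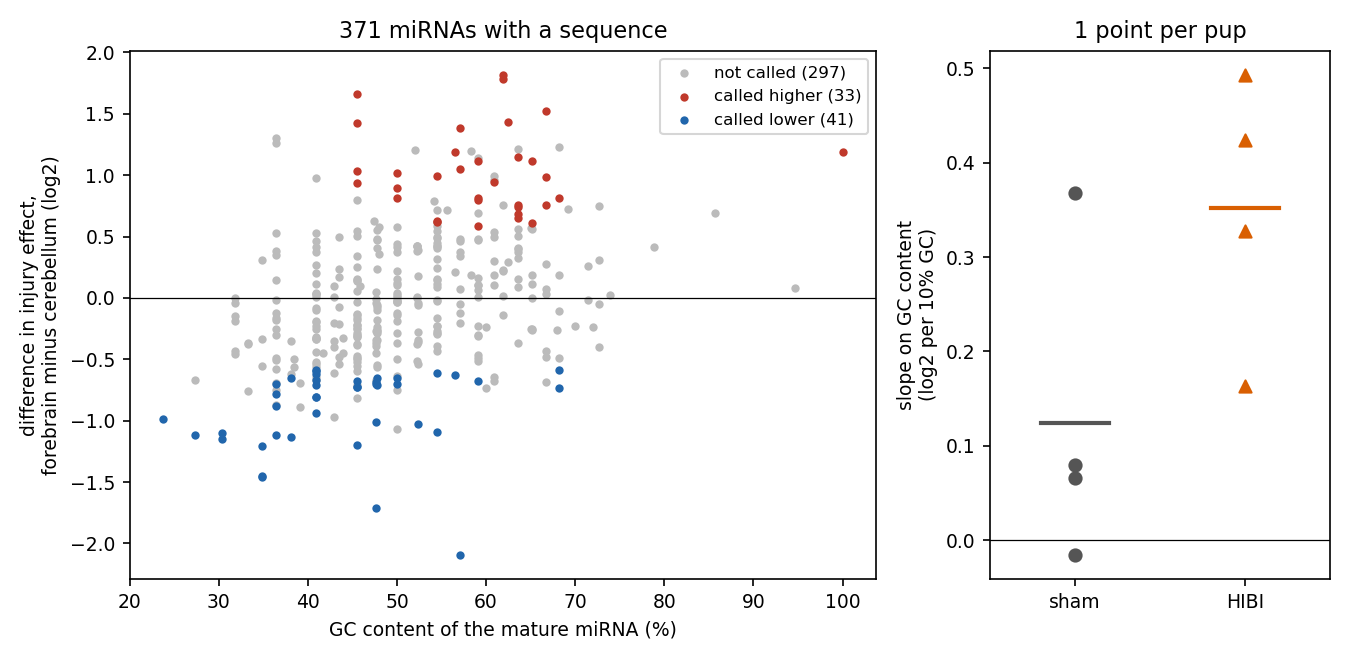
Left, difference in injury effect, forebrain minus cerebellum (log2), against GC content of the mature miRNA for 371 miRNAs; right, the slope of the regional difference on GC content for each pup, with bars at group means. Called-higher miRNAs lie mostly at 50% GC or more (29 of 33), and sham pup 8 lies among the HIBI pups.

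**Figure D5:**
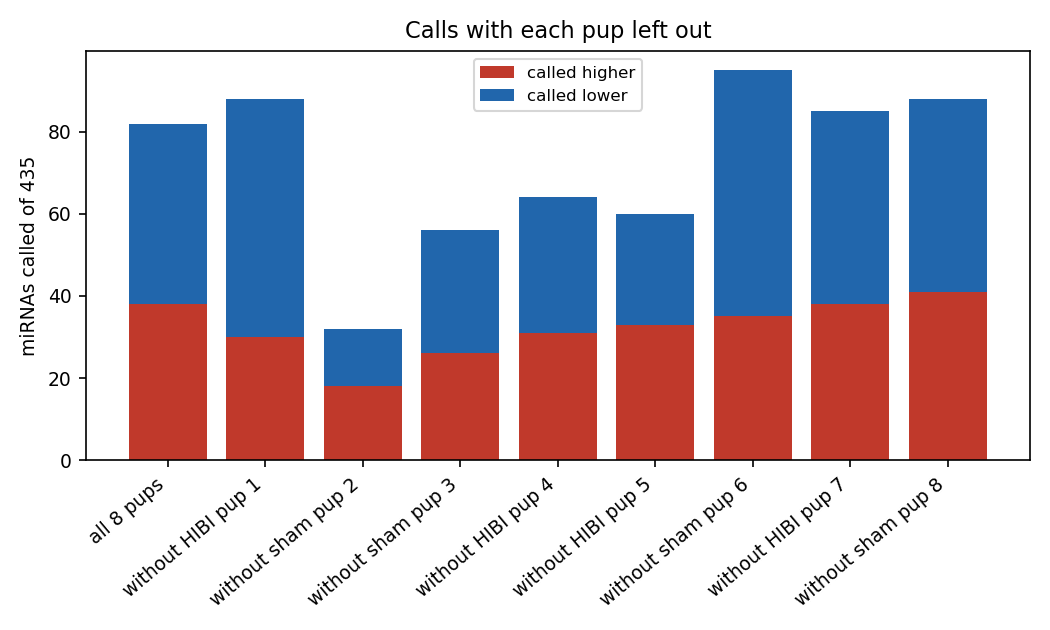
Number of miRNAs called higher and lower of 435 with all pups and with each pup left out in turn. The count is 82 with all pups, 32 without sham pup 2, and 95 without sham pup 6.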

How the data were processed

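MiRNA-Seq libraries of 3 regions from each of 8 pups were used. Bowtie2 alignment to the mature miRBase sequences was done by the authors, who deposited raw counts per mature miRNA and library, together with their own edgeR comparison as log2 fold change, average log2 CPM, p-value, and false discovery rate, which were not used here. Versions, miRBase release, and the treatment of multiply matching reads are not given in the sources used here. The 20 castor bean entries (0.000156% of the counts) entered neither the library totals nor any test.

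The tools were R 4.3.3, edgeR 4.0.16 (TMM, quasi-likelihood test), limma 3.58.1, and DESeq2 1.42.0. One model of the 24 libraries held a term for each pup, region, and injury by region (12 residual degrees of freedom), and the contrast was the mean of the cortex and striatum/thalamus terms relative to cerebellum. MiRNAs with a mean of 10 CPM or less were left out. Called miRNAs had a fold above 1.5 and an unadjusted p under 0.05; adjusted p-values are Benjamini-Hochberg over 435 miRNAs. SE is the size of the log2 difference over the square root of F. Per pup and per library values used CPM with TMM scaling, as log2(CPM + 1) for the per pup differences. The libraries of 1 pup come from the same animal, and of 24 correlations of their deviations 17 were above 0.1 (range -0.12 to 0.59, median 0.22). P-values of this fit rest on the spread of the regions within pups, and those of limma and the permutation test on the spread between the 4 pups of each group.

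Sequences and positions came from RefSeq (GRCm38), with 1291 of 1531 entries matched, and host genes from GENCODE. Named were the 10 called miRNAs with the smallest p in each direction, 9 named by the study, called and leading members of 25 lists, the 5 most abundant, and miR-210-3p. The members and lists were chosen with earlier results of these data known. The steps were tested on simulated data: the fit recovered known changes from noise-free counts, while in noisy draws the scaling shifted all differences of a draw together, so that the sign of a difference near 0 is uncertain. The GC correction (loess, span 0.75) and its run without pup 2 were chosen after seeing the data.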

Additional observations from a re-analysis of the deposited data

Results flagged for a closer look

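Of 102 groups of 4 pups examined, 3 held a pup far from the others by Dixon's criterion on the gap to the nearest pup; chance gives about 1 in 20. The regional difference of miR-320-3p in HIBI pup 5 was -0.088, above the other HIBI pups at -0.38. That of miR-3968 in HIBI pup 1 was 0.060, below the others at 1.14 to 1.24. That of miR-411-5p in HIBI pup 7 was 0.73, above the others at 0.08 to 0.19.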

How the results depend on the processing

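The forebrain minus cerebellum count of 82 was 32 (without pup 2) to 95 (without pup 6) when each pup was left out, and 52 above 100 CPM, 47 with GC correction, and 34 with GC correction without pup 2. For cortex minus cerebellum the count of 60 was 16 to 76 with a pup left out, 95 with no filter, 34 above 100 CPM, and 18 with GC correction without pup 2. For striatum/thalamus minus cerebellum the count of 72 was 40 to 92 with a pup left out, 112 with no filter, 45 above 100 CPM, and 32 with GC correction without pup 2. For cortex minus striatum/thalamus the count of 8 was 6 to 14 with a pup left out, 32 with no filter, 20 above 1 CPM, and 3 above 100 CPM. By adjusted p under 0.05 all 4 counts were 0 in edgeR. Above 100 CPM, 16 miRNAs had groups without overlap. Single regions gave 20 to 74 in cerebellum, 5 to 38 in striatum/thalamus, and 15 to 24 in cortex with a pup left out, and DESeq2 gave 20 in striatum/thalamus. The extremes were without pup 2 and pup 6 in cerebellum (61 without pup 1), and without pup 3 and pup 5 in striatum/thalamus. The cause of these moves was not tested. By adjusted p under 0.05, 19 miRNAs passed in edgeR for the forebrain difference without pup 6, 12 with no filter, 2 above 100 CPM, 2 without pup 8, and 1 with GC correction. Over the called and named miRNAs and all alternatives, 1650 values kept their direction and their side of an unadjusted p of 0.05. Another 344 no longer had a p under 0.05, 12 newly had one, and 18 changed sign. The fold criterion did not enter these counts. MiR-1298-5p had an unadjusted p under 0.05 in 10 of 22 alternatives and in 3 of the 8 with a pup left out.

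Without the replicate block by pup, 67 miRNAs were called (35 higher and 32 lower), 65 of them among the 82; the cortex, striatum/thalamus, and cortex minus striatum/thalamus counts were 47, 57, and 7. MiR-6240 was at -0.67 without the block.

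Other reversals of sign concerned miRNAs that were not called, apart from miR-5126 (-0.10 with GC correction without pup 2). MiR-128-3p was at -0.043 with median-of-ratios scaling and in DESeq2, -0.16 with library size, -0.10 with no filter, -0.036 above 1 CPM, -0.011 above 10 CPM in each region, -0.00481 over miRNAs with a sequence, and -0.10 to 0.18 with a pup left out. MiR-9-5p was at 0.14 with GC correction and 0.040 without pup 2 as well. MiR-451a was at 0.14 and 0.057 under those settings, and -0.77 to 0.026 with a pup left out.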
